A study of Mus musculus with 3 samples.

Results

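The Myc, Max and Mxd network was described in NIH3T3 cells, a mouse fibroblast line that has long been established in culture. The 10 member genes (Myc, Mycn, Mycl, Max, Mxd1, Mxi1, Mxd3, Mxd4, Mnt and Mga) were taken by gene name from a table of 55573 genes, in which each name occurred once. The UMI-RNAseq data hold 3 libraries (library 1, library 2 and library 3) of untreated cells grown in serum-containing medium, so there was 1 condition and no group to compare with another. Nothing in the labels or methods states that the libraries are separate cultures, so an SD or a test over them may measure technical spread only. The values are FPKM, in which the fragments of a gene are divided by its length in kilobases and by the library total in units of 1000000, and the library totals recovered from them lay between 13959723 and 14423209 fragments. The extraction text of the labels speaks of retina, whereas the cell line label names NIH3T3. Of 10 fibroblast markers, 9 had a mean of at least 1 FPKM, with a summed level of 9324 to 9439 FPKM per library and Postn alone below that limit, at 0.494. Of 10 retina markers, none reached 1 FPKM. Their summed level was 0.943 to 1.61 FPKM per library, and Nrl was among those listed at 0. Of all protein-coding genes in the table, 49.3% had a mean of at least 1 FPKM.

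Max encodes a small basic helix-loop-helix leucine zipper protein that pairs with each of the other proteins of the network. Pairs of Max with a Myc protein activate genes through E-boxes, DNA sites of the type CACGTG. Pairs of Max with an Mxd protein or with Mnt bind the same sites and recruit Sin3 and histone deacetylases to repress them. Mga pairs with Max as part of a Polycomb complex. In fibroblasts, Myc is known as a gene that serum growth factors induce when resting cells enter the cell cycle.

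The network in NIH3T3 cells was led by Myc itself, at 246 ± 6.11 FPKM (SD, n = 3), followed by the repressor partner Mnt at 63.9 ± 0.366 and by Max at 47.2 ± 3.13. The Mxd genes were lower, from Mxi1 at 24.4 ± 1.06 down to Mxd3 at 3.34 ± 0.326, and Mga lay among them at 13.8 ± 0.292. The paralogs Mycn and Mycl were nearly absent, with 13 and 2 fragments in all libraries together against 17815 for Myc. Of the 10 members, 8 had a mean of at least 1 FPKM, the limit used for a gene called detected, and 23.2% of all genes listed and 49.3% of the protein-coding genes did so.

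The network's binding site occurs in the promoters of some of its own genes, and these sites are shown because the network's proteins are known to bind this motif. Promoter sequences of RefSeq (GRCm38.p6), 250 bases before to 50 after a gene's start, were matched by symbol for 9 of the 10 members, and Myc had no entry. The motif searched was CACGTG, which reads the same on both strands. It was found for Max, Mnt and Mxd4, or 3 of these 9 genes, and for Mlx and Mlxipl of a parallel network, in which Mlx takes the place of Max. The sites of the members and of Mlx follow with 10 bases on either side, 5′ to 3′ on the strand of the gene, and capitals mark the motif.
Max: tgagcccggtCACGTGttagggggcc
Mnt: ccacccaagcCACGTGtgcgcgcgcg
Mxd4: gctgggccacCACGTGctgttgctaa
Mlx: tgggttggatCACGTGactgagcctc
The Max site lies on the minus strand at chr12:76962236-76962261 and its motif begins 3 bases upstream of the RefSeq start. Distances are counted from RefSeq starts, which can differ from the GENCODE gene starts given with the levels, and for Max the RefSeq start lies farther upstream. The Mnt site lies on the plus strand at chr11:74830791-74830816, with the motif 123 bases upstream. The Mxd4 site lies on the minus strand at chr5:34187914-34187939, with the motif 219 bases upstream. The Mlx site lies on the plus strand at chr11:101087240-101087265, with the motif 40 bases upstream. The motif was present for 8.09% of the 27025 genes of the promoter table, for 11.9% of 9034 genes with a mean of at least 1 FPKM and for 6.10% of 11672 genes under that limit. A match describes the letters in this window and does not show binding.

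Myc (ENSMUSG00000022346, chr15:61985391-61990374, plus strand, in GENCODE M21 on GRCm38) encodes the transcription factor that drives growth and ribosome synthesis. It had 249 FPKM in library 1, 251 in library 2 and 239 in library 3. Its mean ranked 389 among the 12905 genes with a mean of at least 1 FPKM, which places it above 97.0% of them. The genes nearest to it in level were Dab2, an endocytic adaptor, at 246 ± 5.46 FPKM (SD, n = 3) and Lars, the leucyl-tRNA synthetase, at 247 ± 4.56. Pvt1, the long noncoding gene downstream of Myc on the same strand, had 23.4, 25.3 and 22.1 FPKM in libraries 1, 2 and 3. Its highest value was in library 2, as for Myc, but neither gene differed between libraries after adjustment in the exact binomial test described below. With 3 libraries of 1 condition, no shared pattern of Pvt1 and Myc can be read from this.

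Mycn (ENSMUSG00000037169, chr12:12936093-12941914, minus strand) is the paralog best known from neural progenitors and neuroblastoma. Its level was 0.212 FPKM in library 1, 0.146 in library 2 and 0.107 in library 3, from 6, 4 and 3 fragments. Pooled over the libraries, the exact Clopper-Pearson 95% interval of its level ran from 0.0828 to 0.266 FPKM. Mycl (ENSMUSG00000028654, chr4:122995652-123002485, plus strand) is the paralog first found in lung carcinoma. Its level was 0.0808 FPKM in library 1, from 2 fragments, and 0 in libraries 2 and 3, where the floor of 3 fragments equals 0.125 and 0.122 FPKM and the exact upper 95% limit is 0.154 and 0.150 FPKM. Its pooled interval ran from 0.00331 to 0.0986 FPKM and overlapped that of Mycn, whose value was the higher in each library. Intervals and floors cover counting error only. Of the summed FPKM of all 10 members, Myc made up 58.6% ± 0.886 (SD, n = 3), Mycn 0.0369% ± 0.0123 and Mycl 0.00636% on average.

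**Figure D1:**
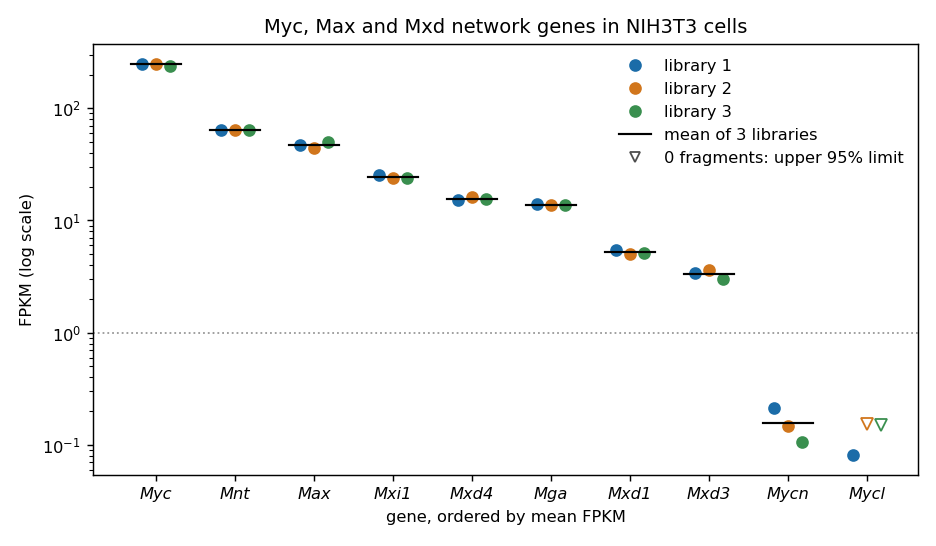
FPKM of the 10 members on a log axis, with a point per library and a line at the mean of the 3 libraries, left out for Mycl. Open triangles give the upper 95% limit where a library had 0 fragments, and the dotted line marks 1 FPKM. Levels run from 246 FPKM for Myc to 3.34 for Mxd3, and Mycn and Mycl lie below 1 FPKM.

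Max (ENSMUSG00000059436, chr12:76937269-76962201, minus strand) had 47.2 FPKM in library 1, 44.0 in library 2 and 50.3 in library 3, from 650, 586 and 686 fragments. It stood above 77.0% of the genes with a mean of at least 1 FPKM, next to the receptor gene Fgfrl1 (47.2 ± 2.91) and the proton pump subunit gene Atp6v1f (47.2 ± 1.64; SD, n = 3). Although Max is the shared partner, its mRNA was 0.192 times the summed level of Myc, Mycn and Mycl (SD 0.0173, n = 3). Max had 12.5%, 11.7% and 13.8% of the summed FPKM of its 9 partners in libraries 1, 2 and 3. These are mRNA levels per length, and protein was not measured.

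Among the repressor partners, Mnt (ENSMUSG00000000282, chr11:74830920-74845725, plus strand) is known from most cell types. It had 63.5, 64.2 and 64.0 FPKM in libraries 1, 2 and 3, the smallest relative spread of the members, with a coefficient of variation of 0.573%. Mxi1 (ENSMUSG00000025025, chr19:53310518-53375810, plus strand), which encodes a Mad protein that antagonizes Myc, had 25.7, 24.0 and 23.7 FPKM. Library 1 was the highest for Mxi1, and its values did not reach those of Max in any library. Mxd4 (ENSMUSG00000037235, chr5:34173883-34187720, minus strand), another Mad gene, had 15.2, 16.2 and 15.7 FPKM. Mxd1 (ENSMUSG00000001156, chr6:86647042-86669161, minus strand), the founding Mad gene, is known to rise during differentiation in many tissues. Its levels were 5.44, 5.06 and 5.10 FPKM. Mxd3 (ENSMUSG00000021485, chr13:55325168-55329823, minus strand) is known from proliferating cells in S phase. It had 3.41, 3.63 and 2.99 FPKM, from 62, 64 and 54 fragments, the lowest level of the 5 repressor partners.

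Mnt alone exceeded the sum of Mxd1, Mxi1, Mxd3 and Mxd4, with ratios of 1.28, 1.31 and 1.35 in libraries 1, 2 and 3. Mnt and the Mxd genes together summed to 113 ± 0.980 FPKM (SD, n = 3), against 246 ± 6.16 for the Myc genes. Their ratio to the Myc genes was 0.454, 0.451 and 0.466, a log2 ratio of -1.13 ± 0.02. Their ratio to Max was 2.40, 2.57 and 2.22, a log2 ratio of 1.26 ± 0.11. None of these sums overlapped between roles. With signs flipped over the libraries, an exact permutation test (two-sided) of each of the 5 log2 ratios between roles had p = 0.25 (n = 3), and 0.25 after Benjamini-Hochberg adjustment, the smallest p that 3 libraries allow.

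**Figure D2:**
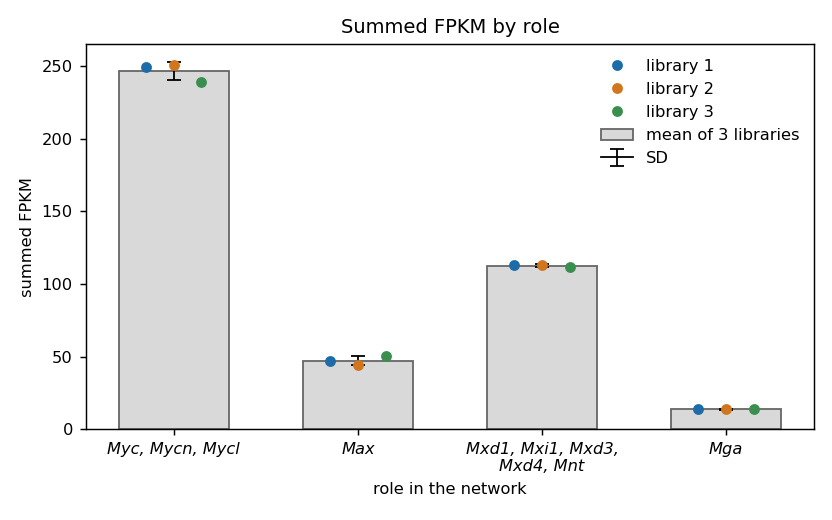
Summed FPKM by role in the network, with bars at the mean of the 3 libraries, error bars of 1 SD and a point per library. The Myc genes sum to 246 FPKM, the Mxd genes and Mnt to 113, Max to 47.2 and Mga to 13.8, with no overlap between roles.

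Mga (ENSMUSG00000033943, chr2:119897228-119969581, plus strand) encodes a large protein with a T-box besides its helix-loop-helix domain. It had 14.2, 13.7 and 13.7 FPKM in libraries 1, 2 and 3, or 0.216 times the level of Mnt (SD 0.00578, n = 3). Beside a share of 49.3% among protein-coding genes, 9 of 10 genes of its Polycomb complex PRC1.6 had a mean of at least 1 FPKM. The median of these 10 genes was 27.8. Cbx3, a reader of methylated histone H3, was the highest at 114 ± 3.60 (SD, n = 3), followed by the dimerization partner Tfdp1 at 79.3 ± 2.46. The scaffold gene L3mbtl2 had 13.8 ± 0.0154 FPKM and lay closest to Mga. E2f6, which encodes a DNA-binding subunit besides Mga, was listed at 0 in all 3 libraries.

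In order of mean FPKM, the members were Myc, Mnt, Max, Mxi1, Mxd4, Mga, Mxd1, Mxd3, Mycn and Mycl. The ranges of the libraries did not overlap for any neighbours down to Mycn. The closest neighbours were Mxd4 and Mga, whose ratio was 1.07, 1.19 and 1.15 in libraries 1, 2 and 3. The counting intervals of this pair overlapped in library 1, from 13.9 to 16.5 FPKM for Mxd4 and from 13.3 to 15.1 for Mga. They also met in library 3, from 14.4 to 17.0 and from 12.8 to 14.5 FPKM, and were apart in library 2. For Mnt over Max, the ratio was 1.34, 1.46 and 1.27, and for Mxd1 over Mxd3 it was 1.56 ± 0.159 (SD, n = 3). The intervals of Mxd1 and Mxd3 overlapped in library 2, from 4.29 to 5.93 and from 2.80 to 4.64 FPKM. The largest step was between Mxd3 and Mycn, with a log2 ratio of 4.48 ± 0.42 (SD, n = 3). Each of the 8 neighbour ratios tested gave p = 0.25 in the exact sign-flip permutation test and 0.25 after Benjamini-Hochberg adjustment, as small as the design allows.

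The order depended in part on the gene length behind each FPKM, which was the mean length of the annotated isoforms. For Max this is 954 nt, the mean of 7 isoforms of 203 to 1942 nt, of which 3 are annotated as protein coding. For Mga it is 4936 nt, although the longest of its 15 isoforms measures 13931 nt. When the longest isoform was used instead, Myc had 179 ± 4.43 FPKM (SD, n = 3), Mnt 27.8 ± 0.159, Max 23.2 ± 1.54 and Mga 4.90 ± 0.103. The order of Mxd1 and Mxd3 was then no longer resolved, at 2.40 ± 0.0977 and 2.42 ± 0.236 FPKM, and Mxi1 and Mxd4 came within their spread, at 9.18 ± 0.397 and 8.85 ± 0.297. In fragments per 1000000, not divided by length, Mga had 68.2 and stood above Mxi1 (46.3), Max (45.0) and Mxd4 (40.9). Myc and Mnt were the highest and second highest on each of these scales. The ratios between roles moved as well. Not divided by length, the log2 ratio of Mga to Mnt was -0.90 against -2.21 in FPKM, that of Mnt and the Mxd genes to Max was 2.36 against 1.26, and that of Max to the Myc genes was -3.22 against -2.39. With the longest isoform, the log2 ratio of Mnt and the Mxd genes to the Myc genes was -1.82 against -1.13.

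**Figure D3:**
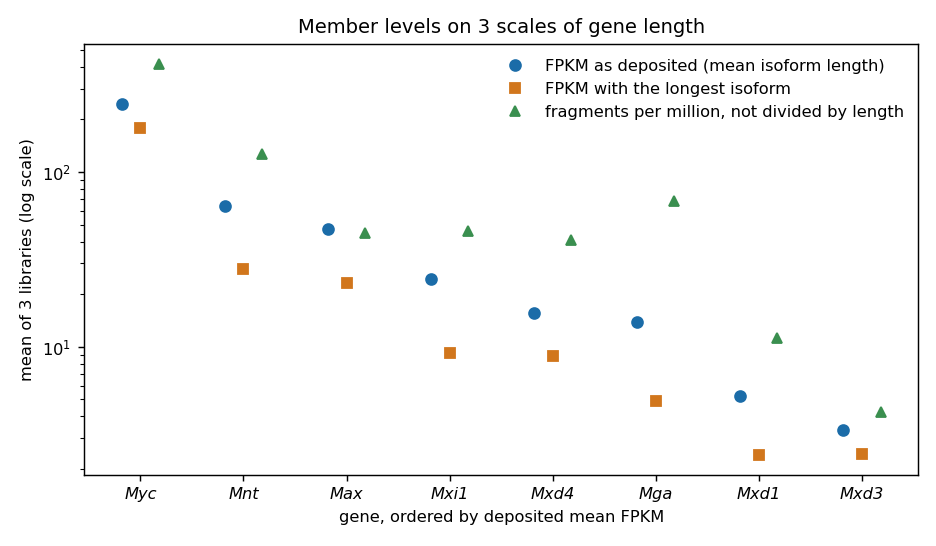
Mean level over the 3 libraries of the 8 members with at least 1 FPKM, on a log axis, as deposited FPKM, as FPKM with the longest annotated isoform, and as fragments per 1000000 not divided by length. Myc leads on each scale, and Mga moves from 13.8 FPKM to 4.90 with the longest isoform.

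The members were also compared between the replicate libraries, with an exact two-sided conditional binomial test on the recovered fragments of all genes. This test compares libraries, not conditions. After Benjamini-Hochberg adjustment over all genes, 0 of 29 comparisons of members passed 0.05 in this exact test, where the share among all genes was 0.699% (libraries 1 and 2), 0.685% (1 and 3) and 0.412% (2 and 3). Without adjustment, 3 of the 29 passed, where the share among all genes was 5.35%, 5.52% and 4.21% for the same pairs, and 9.62%, 10% and 6.93% among genes with at least 200 fragments in the libraries of a pair together. Myc was lower in library 3, at 0.955 times its level in library 2 (exact p = 0.012, adjusted p = 0.904) and 0.962 times that in library 1 (exact p = 0.033, adjusted p = 0.794). Max went the other way, at 1.14 times its level in library 2 (exact p = 0.018, adjusted p = 1). The coefficient of variation was 2.48% for Myc and 6.63% for Max, where counting error alone gives 1.30% and 3.95%. The spread was also above counting error for Mxi1, at 4.32% against 3.90%, and for Mycl, at 173% against 122% from 2 fragments. For Mnt, Mga, Mxd1, Mxd3, Mxd4 and Mycn, it was below counting error.

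**Figure D4:**
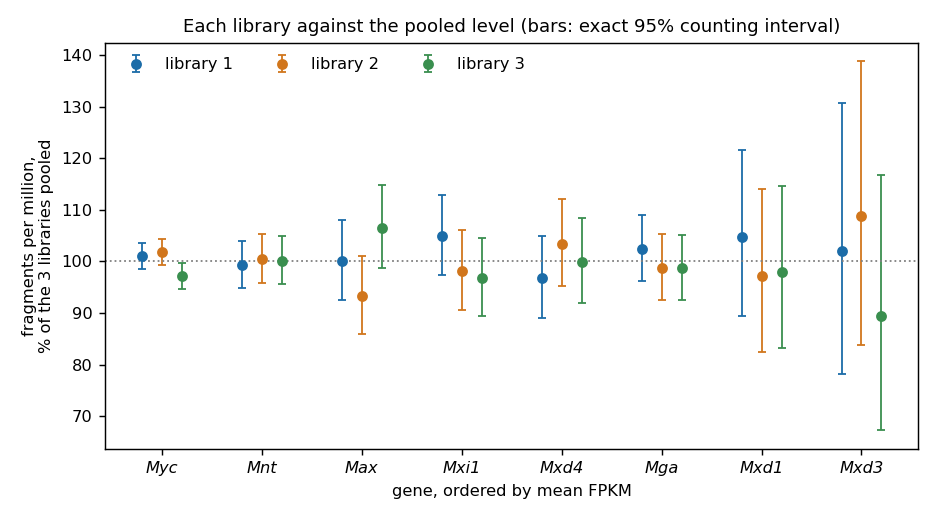
Fragments per 1000000 of the 8 members with at least 1 FPKM in each library, as a percentage of the 3 libraries pooled, with exact 95% counting intervals. Library 3 lies at 97.2% for Myc and at 106% for Max, and the intervals widen toward Mxd3, which has 180 fragments in all.

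Sequence shared with other genes touched few members. No word of 75 nt in the annotated isoforms of Myc, Mycn, Mycl, Max, Mxd1, Mnt or Mga occurred in a transcript of another gene. Mxd4 shared 4.41% of its words, Mxi1 1.75% and Mxd3 1.19%. The exons of Mxd3 overlap those of Prelid1, a mitochondrial lipid transfer gene on the opposite strand, over 105 nt. Prelid1 had 116 FPKM and 9502 fragments against 180 for Mxd3, and a strand setting for the counting is not given in the sources used here, so some fragments could not be told apart there. Gm10197 and Gm42846, which overlap exons of Mxi1 and Mxd4 on the opposite strand, were listed at 0. Words of Mxd4 also occurred in transcripts of Etv1 and Pgm2l1, each with a mean of at least 1 FPKM. Etv1 lay above Mxd4 in mean FPKM. Olfr981 and Slc17a8, which also shared words with Mxd4, lay below 1 FPKM. The share of words was not split by gene, and its effect on the fragments of Mxd4 was not tested.

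The parallel network of Mlx, which shares the repressors Mxd1, Mxd4 and Mnt with Max, was also read, and Mlx itself lay below Max. Mlx had 10.2, 9.84 and 11.7 FPKM in libraries 1, 2 and 3, and in no library as much as Max. Its glucose-sensing partner Mlxip, also called MondoA, had 30.1 ± 0.184 FPKM (SD, n = 3). Mlxipl, the ChREBP gene of liver and fat, was listed at 0 in all 3 libraries, where the exact upper 95% limit over the pooled libraries is 0.0415 FPKM. Of 9 other basic helix-loop-helix zipper factors that bind E-boxes, 8 had a mean of at least 1 FPKM, where 49.3% of protein-coding genes did. None of these 9 factors reached Myc. The sterol regulator Srebf2 was the highest at 88.6 ± 2.32, followed by Usf1 at 51.0 ± 2.31, and the lowest were Mitf at 6.75 ± 0.677 and Tfec, with 1 fragment in all.

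The mRNAs for proteins known to work with the network were nearly all detected. Each of 14 Myc cofactor genes had a mean of at least 1 FPKM, with a median of 44.0. The chromatin ATPase Ruvbl2 had 109 ± 0.739 FPKM (SD, n = 3) and Ccnt1, a subunit of the elongation kinase, 91.7 ± 1.35. The lowest were the acetyltransferase Kat2a at 18.5 ± 0.328 and Zbtb17, which encodes the Myc-binding transcription factor Miz1, at 16.3 ± 0.484. Each of 10 Sin3 and NCoR corepressor genes passed the same limit, with a median of 60.8. Ncor1 had 109 ± 2.80 and Hdac2 85.5 ± 4.08, whereas Sin3a had 28.0 ± 0.205 and Sap30 16.8 ± 1.64. Sin3b, the homologue of Sin3a, had 74.0 ± 0.267 and lay above Sin3a in each library. Each of 10 genes for Myc protein turnover also passed, with a median of 28.7. The ubiquitin ligase gene Huwe1, at 303 ± 8.33, was the only one above Myc, and the kinase gene Gsk3b followed at 81.5 ± 1.14. The ligase gene Fbxw7 was the lowest at 11.0 ± 0.682. The median was 0 over all genes listed and 0.830 over the protein-coding genes. The limit of 1 FPKM was reached by 23.2% of all genes listed and 49.3% of the protein-coding genes.

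Genes commonly given as Myc targets were read in the same libraries. Of 25 genes given as activated, 24 had a mean of at least 1 FPKM, 9 lay above Myc itself and the median was 131. Among the 21903 protein-coding genes, 49.3% reached 1 FPKM, 358 lay above Myc and the median was 0.830. The nucleolar genes Npm1, at 835 ± 8.04 FPKM (SD, n = 3), and Ncl, at 771 ± 2.45, were the highest. The transferrin receptor gene Tfrc, at 25.5 ± 0.660, and the telomerase gene Tert, at 0.907 ± 0.127 from 84 fragments, were the lowest. Of 7 genes given as repressed, 5 had a mean of at least 1 FPKM, and the median was 53.2. The stress response gene Ndrg1 had 289 ± 6.79 and the CDK inhibitor gene Cdkn1a 143 ± 1.22. Ndrg2 had 3 fragments in all, and the CDK inhibitor gene Cdkn2b was listed at 0. With 1 condition, these levels do not show regulation by Myc.

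**Figure D5:**
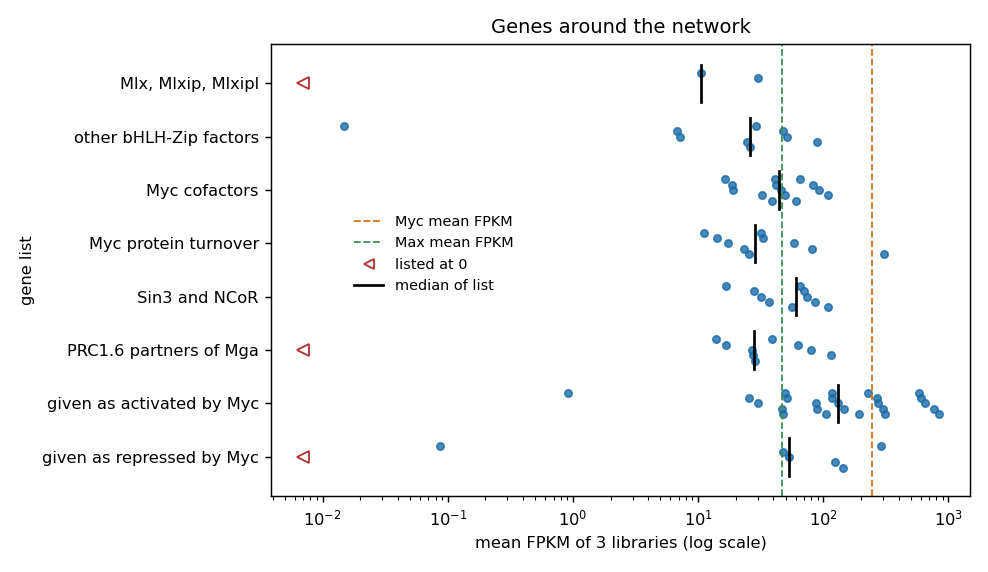
Mean FPKM over the 3 libraries of the genes around the network, on a log axis, with a point per gene and a black line at the median of each list. Dashed lines mark Myc at 246 FPKM and Max at 47.2, and open triangles mark genes listed at 0. Of the lists drawn, the one given as activated by Myc has the highest median, 131 FPKM.

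The motif CACGTG was also searched in the promoters of the target lists, and the sites are shown for the highest genes that hold it. It was found for 6 of 20 genes given as activated that had a promoter entry (30.0%) and for 0 of 6 given as repressed. It was also found for 1 of 13 cofactor genes, 1 of 8 PRC1.6 genes, 0 of 8 turnover genes, 0 of 7 corepressor genes, 0 of 7 other E-box factors and 0 of 6 fibroblast markers. As above, 11.9% of all genes with at least 1 FPKM hold it, and the lists were chosen with known results, so no test was made. Cdk4, the G1 cyclin-dependent kinase at 272 ± 2.42 FPKM (SD, n = 3), holds 4 such sites in its window, and Ldha, lactate dehydrogenase at 583 ± 1.92, holds 2.
Cdk4, 172 bases upstream: ggcagccagtCACGTGccacacagcg
Cdk4, 118 bases upstream: gtcaaggggtCACGTGggatagcaac
Cdk4, 98 bases upstream: agcaacaggtCACGTGgccgtcaggg
Cdk4, 11 bases upstream: gggtgaagatCACGTGtccagaacgt
Ldha, 145 bases upstream: tgtcgcagcaCACGTGgagccactct
Ldha, 48 bases upstream: gcccagcctaCACGTGggttcccgca
Eif4a1, 189 bases upstream: atcgcctccgCACGTGtaaaggtgct
Hspd1, 80 bases upstream: ccggctgggaCACGTGaaaaggccgc
The Cdk4 sites lie on the plus strand between chr10:127063353-127063378 and chr10:127063514-127063539. The Ldha sites lie on the plus strand at chr7:46845649-46845674 and chr7:46845746-46845771. The site of Eif4a1, a translation initiation helicase at 649 ± 5.92 FPKM (SD, n = 3), lies on the minus strand at chr11:69672597-69672622. The site of Hspd1, a mitochondrial chaperone at 607 ± 2.45 FPKM (SD, n = 3), lies on the minus strand at chr1:55088308-55088333.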

How the data were processed

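UMI-RNAseq of 3 NIH3T3 libraries was used. According to the methods and the submitters' processing notes, UMIs were identified with UMI-tools 1.0.0, mapping used HISAT2 2.0.4, duplicates with equal UMIs were discarded, and HTSeq 0.6.1 counted genes. The authors deposited FPKM per library, in 2 tables with identical values. The build, annotation and strand setting of the counting are not given in the sources used here. Fragments were recovered as FPKM times the mean isoform length in GENCODE M21 (GRCm38) times the library total, and came out whole, within 0.001, for 99.1% of 26193 genes with a value above 0. The recovery and the binomial test were tried on simulated fragments that, apart from planted changes, varied between libraries by counting error only. Spread beyond counting error was not simulated, so this trial cannot show how the test behaves under it. Positions and isoforms come from GENCODE M21, promoters from RefSeq GRCm38.p6. Python 3.11.15, numpy 2.4.6, pandas 2.3.3, scipy 1.17.1 and matplotlib 3.10.9 were used. No pseudocount or low-value filter was applied to levels.

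The members and gene lists were chosen with earlier results of these data known. The genes named are the members, the Mlx genes, Pvt1, the 2 highest and 2 lowest of each list, genes listed at 0, overlapping genes and the 2 genes nearest in level to Myc and Max. L3mbtl2, Sin3b, the genes with printed sites and the other genes that share words with Mxd4 were named after their values were seen. Some genes that this rule names are not reported here. Alternatives were leaving out a replicate, TPM, median-of-ratios scaling, the median, the longest isoform, no division by length, pseudocounts, other limits and other ranking sets. AmpFISH images were not analysed here.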

Additional observations from a re-analysis of the deposited data

How the results depend on the processing

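Of 227 values recomputed under the alternatives, 183 were labelled as kept, 41 as moved and 3 log2 ratios as reversed. Kept means the same direction for a ratio and a shift under 1 SD for a level. Counts of genes have no SD and were all labelled as kept, and percentiles over other ranking sets were all labelled as moved. With a limit of 0.1 FPKM, 9 members passed, and with 5 FPKM, 7 did. Without division by length, the log2 ratio of Max to Mxi1 was -0.041 against 0.95 and that of Mxd4 to Mga was -0.74 against 0.18. With the longest isoform, the log2 ratio of Mxd1 to Mxd3 was -0.0100 against 0.64. These settings change the length behind the value by construction. Rescaled to TPM, the levels were 357 for Myc, 0.224 for Mycn, 68.3 for Max, 7.53 for Mxd1, 35.4 for Mxi1, 4.84 for Mxd3, 22.7 for Mxd4, 92.6 for Mnt and 20.0 for Mga. With the longest isoform, they were 179 for Myc, 23.2 for Max, 2.40 for Mxd1, 9.18 for Mxi1, 2.42 for Mxd3, 8.85 for Mxd4, 27.8 for Mnt and 4.90 FPKM for Mga. Not divided by length, they were 417 for Myc, 0.304 for Mycn, 11.2 for Mxd1, 46.3 for Mxi1, 4.22 for Mxd3, 40.9 for Mxd4, 128 for Mnt and 68.2 fragments per 1000000 for Mga. The percentile among all genes listed was 99.3 for Myc, 94.7 for Max, 82.4 for Mxd1, 90.6 for Mxi1, 80.9 for Mxd3, 87.7 for Mxd4, 96.2 for Mnt and 87.0 for Mga. Among genes with at least 0.1 FPKM, it was 98.0 for Myc, 84.6 for Max, 49.3 for Mxd1, 72.8 for Mxi1, 45.0 for Mxd3, 64.6 for Mxd4, 88.9 for Mnt and 62.4 for Mga. Leaving out each replicate, median-of-ratios scaling and the median over libraries reversed no ratio and left 8 members at or above 1 FPKM. Depth limits Mycn and Mycl, with 13 and 2 fragments. No paired analysis was possible because all 3 libraries belong to a single group.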

Other observations

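Other members of the Myc gene family were read from the same table. Bmyc and Mycs, mouse paralogs of Myc, were both listed at 0 in all 3 libraries, where the exact upper 95% limits over the pooled libraries are 0.0879 and 0.0365 FPKM. E2f6 was listed at 0 although 9 other genes of its complex had at least 1 FPKM. Of the 75-nt words of E2f6, 0% occurred in an annotated transcript of another gene, and sequence outside annotated transcripts was not searched. Its exact upper 95% limit over the pooled libraries is 0.0474 FPKM, which covers counting error only. Why E2f6 was listed at 0 was not tested.

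No member passed 0.05 between libraries after adjustment over all genes (exact conditional binomial test, Benjamini-Hochberg). Of 114 genes in the members' and surrounding lists, 7 passed in at least 1 of the 3 pairs. The share among all genes was 0.699%, 0.685% and 0.412% in the 3 pairs, and the test covers counting error only. These shares are for 1 pair each and include genes with few fragments, so the 7 of 114 cannot be set against them as an excess. The 7 genes were Fn1, Gas1, Huwe1, Odc1, Smarcb1, Srm and Usf2, named after their values were seen, and each passed only in pairs with library 1. Fn1 passed with 4278, 4421 and 4433 FPKM in libraries 1, 2 and 3. Usf2, which binds the same E-box, had 31.7 FPKM in library 1, 23.2 in library 2 and 22.4 in library 3 (adjusted p = 0.0046 against library 2 and 0.00054 against library 3 in the exact test). The cause of these differences between libraries was not tested.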
